A study of Mus musculus with 6 samples.

Results

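The alpha-arrestins are a family of adaptor proteins, and 5 of their genes were measured here: Txnip and Arrdc1, Arrdc2, Arrdc3 and Arrdc4. Mlxip and Mlxipl, which encode the transcription factors MondoA and ChREBP that control Txnip, were taken with them. These 7 genes were picked by name from a table of 30071 genes. They were picked with the response of Txnip and Arrdc3 in the same libraries already known, so the values of the comparison below describe these genes and are no independent test of them. The 6 libraries came from MC3T3-E1, a mouse pre-osteoblast cell line, grown on nano- and microstructured polyetheretherketone (PEEK), a polymer of bone implants. In 3 libraries the cells also received supernatant of RAW264.7, a mouse macrophage line, and in 3 they grew on the structured PEEK alone. The labels do not state what the RAW264.7 cells grew on, how long the supernatant was present or whether each library was a culture of its own. The titles call 2 libraries of each group biological replicates and say nothing of the third, so errors measure only the spread between these libraries.

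Alpha-arrestins share the arrestin fold with the beta-arrestins that switch off receptors, and most carry short tail motifs that recruit ubiquitin ligases of the NEDD4 family to membrane proteins. TXNIP is the member that also binds thioredoxin, a small protein that reduces disulfides, and both TXNIP and ARRDC4 lower glucose uptake. MondoA and ChREBP sense phosphorylated sugars, pair with the factor MLX and bind carbohydrate response elements, so that Txnip mRNA follows the sugar status of many cells.

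Each library held 74927500 to 82803173 counts. Replicate 1 with supernatant stood apart from the others of its group. The chi-square per gene between replicates was 92.6 and 101 for its pairs and 32.2 for the remaining pair. Replicate 1 on PEEK alone also stood apart, less far, with 55.1 and 51.8 for its pairs and 23.6 for the remaining pair. In both groups replicate 1 is the library whose title does not call it a biological replicate. Pre-osteoblast markers were present at very unlike levels, with Col1a2 at 350 to 648 FPKM and Runx2 at 15 to 26.4 FPKM over the 6 libraries. Col1a1 lay at only 1.76 to 3.54 FPKM and Pth1r at 0.236 to 0.484 FPKM. The 8 markers summed to 778 to 1095 FPKM with supernatant and 967 to 1134 FPKM on PEEK alone. Col1a2 was the largest part of this sum in each library. FPKM is the deposited level, scaled to the length of the gene model and to sequencing depth. Of the macrophage markers 7 of 10 were in the table, and their summed level was 4.72 to 7.04 FPKM with supernatant and 5.75 to 7.97 FPKM on PEEK alone. Most of that sum was Cd14, at 3.15 to 4.79 FPKM, and Cd68, at 0.95 to 2.55 FPKM over the 6 libraries, whereas Ptprc and Csf1r held at most 4 and 46 counts in any library. Fibroblast and adipocyte markers summed to 5.01 to 6.89 FPKM with supernatant and 3.4 to 8.92 FPKM on PEEK alone, and the adipocyte genes Adipoq and Plin1 had 0 counts in each library with supernatant and at most 4 counts in any library on PEEK alone. The 3 marker lists were chosen with earlier results of these data known, so counts of their genes are no independent test. No tested marker was called by edgeR or DESeq2 (adjusted p under 0.05). Of the 17 tested, 2 (11.8%) had an unadjusted edgeR p under 0.05, where 8.95% of all tested genes had. These were Dcn and Cebpa, with log2 fold changes of 1.26 and 0.98 (with supernatant over PEEK alone). Alpl had 0.82, but this rested on replicate 1 with supernatant: its CPM (counts scaled to library size by the TMM method) was 83.7, 25 and 20.4 with supernatant and 16.2, 29.7 and 27.2 on PEEK alone, and without that library the log2 fold change was −0.09. The osteoblast factors Sp7 and Runx2 were likewise highest in that library, and their log2 fold changes of 0.31 and 0.26 became −0.37 and 0.02 without it. Without that library Col1a1, Col1a2 and Sparc went from −0.37, −0.28 and −0.15 to −0.67, −0.57 and −0.29. Pth1r went from −0.06 to −0.38 and Spp1 from −0.13 to 0.15. Cd68, Cd14, Csf1r and Lyz2 went from −0.43, −0.17, 0.11 and −0.25 to −0.18, 0.01, 0.31 and −0.59. Pdgfra, Pparg and Lpl went from −0.20, 0.32 and 0.44 to −0.44, 0.77 and 0.51. Dcn and Cebpa had 1.54 and 1.09 without it. Cebpa, a factor of adipocytes, was the 1 tested marker (5.88% of them, against 15.2% of all tested genes) whose groups did not overlap, at 0.942 ± 0.353 CPM with supernatant and 0.476 ± 0.0798 CPM on PEEK alone (SD, n = 3 each); its part in the results below was not tested.

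The level of the members differed widely. Txnip was the highest in each of the 6 libraries, at 23.5 to 41.7 FPKM, which placed its mean above 92.2% of the 18177 genes with enough counts to be tested. Mlxip followed at 10.5 to 14.4 FPKM. These ranges did not overlap each other or those of the other members. Arrdc3 (3.72 to 8.55 FPKM), Arrdc1 (5.31 to 6.1 FPKM) and Arrdc4 (2.87 to 7.24 FPKM) formed a middle group whose ranges overlapped. Their order was reversed between the groups: Arrdc4 exceeded Arrdc1 and Arrdc1 exceeded Arrdc3 in 3 of 3 libraries with supernatant, whereas Arrdc3 exceeded Arrdc1 and Arrdc1 exceeded Arrdc4 in 3 of 3 libraries on PEEK alone. Arrdc2 was at 2.24 to 2.98 FPKM, below Arrdc4 in 6 of 6 libraries although their ranges overlapped. Mlxipl was the lowest.

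**Figure D1:**
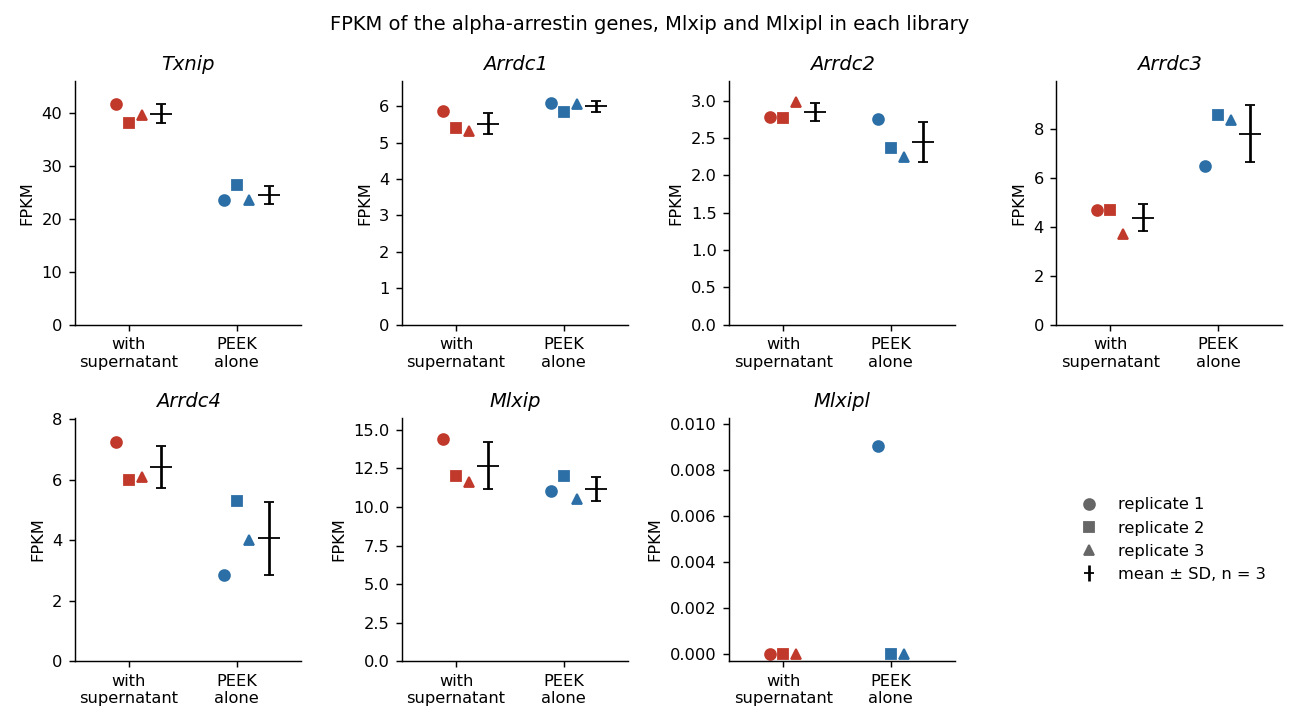
FPKM of each gene in the 3 libraries with supernatant (left, red) and the 3 on PEEK alone (right, blue), 1 panel per gene with its own axis, with replicate number as symbol and mean ± SD (n = 3) beside the points except for Mlxipl. Txnip and Arrdc4 lie higher and Arrdc3 lower in all 3 libraries with supernatant, while Mlxipl is listed at 0 in 5 libraries.

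Txnip and Arrdc4 were both higher with supernatant and Arrdc3 was lower, while Arrdc1, Arrdc2 and Mlxip stood within 1.15-fold. Txnip (ENSMUSG00000038393, chr3:96465273-96469199, plus strand, as the deposited table places it on a genome build that no label names) had 41.7, 38.1 and 39.7 FPKM in replicates 1, 2 and 3 with supernatant, against 23.6, 26.4 and 23.5 FPKM on PEEK alone. The groups lay far apart: the lowest library with supernatant exceeded the highest on PEEK alone. These values rest on 9154 to 10346 counts per library with supernatant and 5839 to 7034 on PEEK alone. The log2 fold change of Txnip, fitted with edgeR, was 0.69 (SE 0.08), a 1.61-fold difference. Leaving out any 1 library kept it between 0.66 and 0.75, and without replicate 1 with supernatant, the library that stood furthest apart, it was 0.68. In bulk RNA, a change in the number of cells that hold a transcript and a change in its amount per cell cannot be told apart. The long noncoding gene Gm15441 overlaps Txnip on the opposite strand. Its counts were 36, 14 and 26 with supernatant and 37, 21 and 10 on PEEK alone, far below those of Txnip, and no label states whether counting used strand.

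Arrdc4 (ENSMUSG00000042659, chr7:68386743-68398989, minus strand), which encodes an adaptor that like TXNIP responds to sugar and limits glucose uptake, had 7.24, 5.99 and 6.09 FPKM in replicates 1, 2 and 3 with supernatant, against 2.87, 5.3 and 4.03 FPKM on PEEK alone. The groups did not overlap, but the libraries on PEEK alone were widely spread, and replicate 2 of them came close to the lowest library with supernatant. The log2 fold change was 0.64 (SE 0.21), a 1.56-fold difference, and its size depended on the libraries on PEEK alone. It was 0.45 without replicate 1, the lowest of them, and 0.88 without replicate 2, the highest. The ratio of Txnip to Arrdc4 in FPKM, which does not depend on library scaling, was 5.76, 6.36 and 6.52 with supernatant and 8.2, 4.98 and 5.82 on PEEK alone, so that the ratio overlapped between the groups.

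Because Txnip and Arrdc4 were both higher with supernatant, the 250 bases upstream of their annotated starts are shown, from RefSeq on GRCm38.p6, each read 5′ to 3′ on the strand of its gene. Capitals mark matches on either strand to any of 4 motifs, none of which overlapped another here: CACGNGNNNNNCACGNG, a pair of half-sites of the kind bound by MondoA and ChREBP with MLX, the E-box CACGTG, the CCAAT box CCAAT, a site of the factor NF-Y, and GTAAACA, a site of forkhead factors. The Txnip window is chr3:96557707-96557956 on the plus strand and the Arrdc4 window chr7:68749239-68749488 on the minus strand. These positions do not line up with the deposited gene coordinates given above, which are on another build, so distances between them have no meaning.
Txnip: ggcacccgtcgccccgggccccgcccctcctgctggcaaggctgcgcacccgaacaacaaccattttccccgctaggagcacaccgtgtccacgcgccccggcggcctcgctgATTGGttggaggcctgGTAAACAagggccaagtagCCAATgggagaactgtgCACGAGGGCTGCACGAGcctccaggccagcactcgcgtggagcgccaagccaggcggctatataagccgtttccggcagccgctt
Arrdc4: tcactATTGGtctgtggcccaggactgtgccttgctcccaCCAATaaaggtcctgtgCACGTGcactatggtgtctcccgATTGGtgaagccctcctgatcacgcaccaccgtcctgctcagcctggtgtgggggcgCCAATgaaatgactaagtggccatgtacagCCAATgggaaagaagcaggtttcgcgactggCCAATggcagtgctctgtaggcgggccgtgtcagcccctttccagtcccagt

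The paired element of Txnip, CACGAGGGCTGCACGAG, ran from base -85 to base -69 counted from the start, and it followed 1 forkhead match and 2 CCAAT matches. Such a pair was held by 15 of 32851 RefSeq windows of this length, or 0.0457%. The pattern takes only half-sites written in the same direction, which is the form of the Txnip element. Other arrangements of the half-sites were not searched. The share therefore describes this pattern and is no independent test of Txnip, and other forms of the element could have been missed in any window. Arrdc4 held no exact pair of this form in this window but 1 E-box, which 6.02% of windows held, and 6 CCAAT boxes. At least 1 CCAAT box was present in 33.8% of windows and 6 or more in 0.0578%. The 2 CCAAT boxes of Txnip are less unusual, since 10.1% of windows held 2 or more, and the forkhead letters occurred in 3.17%.

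The other members held fewer matches. Arrdc3 has 3 annotated starts in the table, of which the 1st and 3rd windows share most bases. Each of these had 1 CCAAT box and the 2nd had none of the 4 motifs. Arrdc2 had 3 CCAAT boxes, Mlxip had 2, and Arrdc1 had no match. A second start of Mlxipl had 1 E-box and 1 CCAAT box. These are matches of letters, and binding was not measured.

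**Figure D2:**
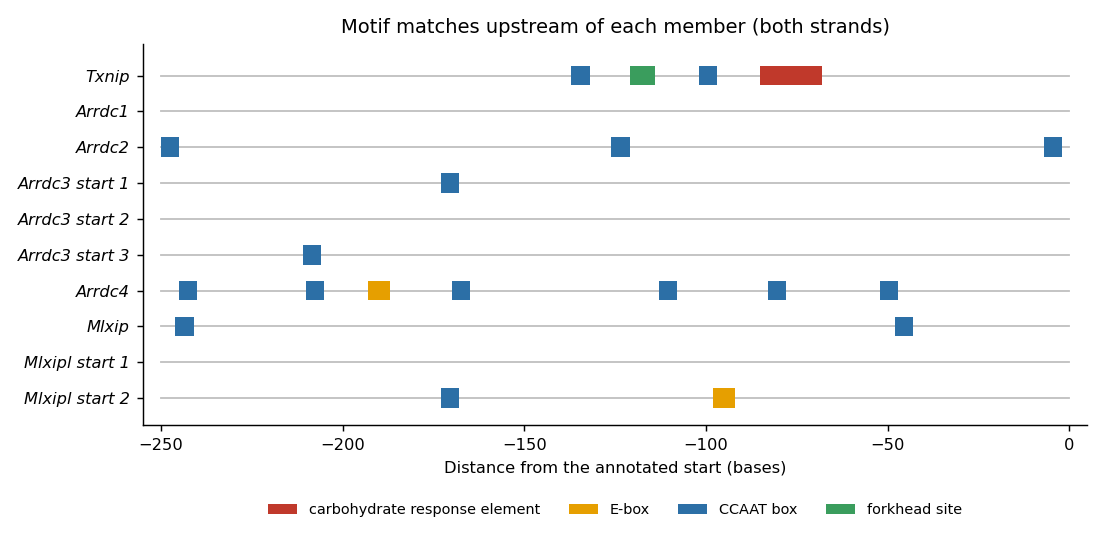
Matches to 4 motifs, as coloured blocks, on the 250 bases upstream of each annotated start (1 line per start; x axis, bases from the start). Txnip has the paired carbohydrate response element, and Arrdc4 has 6 CCAAT boxes and 1 E-box.

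Arrdc3 (ENSMUSG00000074794, chr13:81031503-81044154, plus strand) encodes an endosomal adaptor that limits heat production in mice. It had 4.68, 4.7 and 3.72 FPKM in replicates 1, 2 and 3 with supernatant, against 6.47, 8.55 and 8.36 FPKM on PEEK alone. All libraries with supernatant lay below all on PEEK alone, and among those on PEEK alone replicate 1 was the lowest. The log2 fold change was −0.85 (SE 0.14), to 0.55 of the level on PEEK alone. It lay between −0.97 and −0.75 when each library was left out and was −0.88 without replicate 1 with supernatant. A noncoding gene on the opposite strand, 1700023H06Rik, had at most 14 counts in any library.

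The opposite directions of Txnip and Arrdc3 were clearest within a library. The ratio of Txnip to Arrdc3 in FPKM was 8.91, 8.11 and 10.7 in replicates 1, 2 and 3 with supernatant, against 3.64, 3.09 and 2.81 on PEEK alone. Arrdc4 exceeded Arrdc3 by a ratio of 1.28 to 1.64 with supernatant and reached 0.444 to 0.62 of it on PEEK alone. The summed level of the 5 alpha-arrestins was 59 ± 2.85 FPKM with supernatant and 44.8 ± 3.38 FPKM on PEEK alone (SD, n = 3 each). Txnip supplied 67.5% ± 1.01 of this pool with supernatant and 54.7% ± 1.66 on PEEK alone (SD, n = 3 each). Arrdc3 supplied 7.4% ± 0.912 with supernatant and 17.4% ± 1.74 on PEEK alone. The share of Arrdc4, 10.5 to 11.6% with supernatant and 6.88 to 10.9% on PEEK alone, overlapped between the groups.

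**Figure D3:**
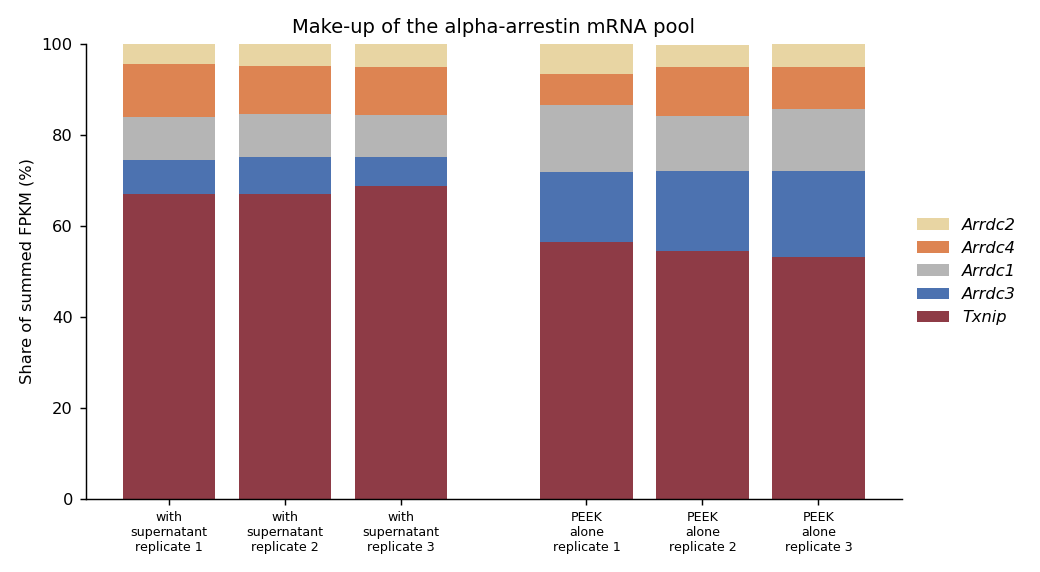
Share of each alpha-arrestin in the summed FPKM of the 5 genes, as stacked bars for the 3 libraries with supernatant (left) and the 3 on PEEK alone (right). Txnip takes 66.9 to 68.7% with supernatant and 53.1 to 56.4% on PEEK alone, and Arrdc3 takes 6.44 to 8.25% with supernatant and 15.5 to 18.9% on PEEK alone.

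Arrdc1 and Arrdc2 differed little between the groups. Arrdc1 (ENSMUSG00000026972, chr2:24815364-24825264, minus strand), which drives budding of small vesicles from the cell surface, had 5.86, 5.39 and 5.31 FPKM with supernatant and 6.1, 5.83 and 6.07 FPKM on PEEK alone. In FPKM the groups overlapped slightly, while in CPM all libraries with supernatant, at 13.8 to 14.9, lay below those on PEEK alone, at 15.3 to 16. Its log2 fold change was −0.13 (SE 0.10). Arrdc2 (ENSMUSG00000002910, chr8:71287773-71292364, minus strand), a little-studied adaptor of the same family, had 2.78, 2.77 and 2.98 FPKM with supernatant and 2.75, 2.36 and 2.24 FPKM on PEEK alone. In FPKM these groups narrowly did not overlap, while in CPM they overlapped, through replicate 1 on PEEK alone. The log2 fold change of Arrdc2 was 0.20 (SE 0.14).

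Of the Mondo factors, these cells held mRNA of Mlxip and almost none of Mlxipl. Mlxip (ENSMUSG00000038342, chr5:123532861-123595995, plus strand) had 14.4, 12 and 11.6 FPKM in replicates 1, 2 and 3 with supernatant, against 11, 12 and 10.5 FPKM on PEEK alone. The groups overlapped, and the highest value was that of replicate 1 with supernatant. The log2 fold change was 0.17 (SE 0.10), and 0.09 without that library. Mlxipl (ENSMUSG00000005373, chr5:135118744-135167236, plus strand) had 0 counts in all 3 libraries with supernatant and 4, 0 and 0 counts in replicates 1, 2 and 3 on PEEK alone. A count of 0 allows up to 3 counts, or 0.0362 to 0.04 CPM in these libraries, so no comparison of Mlxipl was possible. This limit covers counting error only.

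The comparison across the whole table was made with edgeR's quasi-likelihood test and Benjamini-Hochberg adjustment. Among the 7 members 6 passed the filter on low counts, all but Mlxipl. None of the 6 was called at an adjusted p under 0.05, where 0.0165% of tested genes were called, and 3 of the 6 had an unadjusted p under 0.05, where 8.95% of tested genes had. DESeq2 called Txnip and Arrdc3, and 1.42% of the genes it adjusted. Since the members were picked with this comparison known, nothing is read from these counts. In CPM, 2 members (Txnip and Arrdc4) had every library with supernatant higher and 2 (Arrdc3 and Arrdc1) every library lower, where 7.83% and 7.36% of tested genes did so. The median log2 fold change of all tested genes was −0.01.

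**Figure D4:**
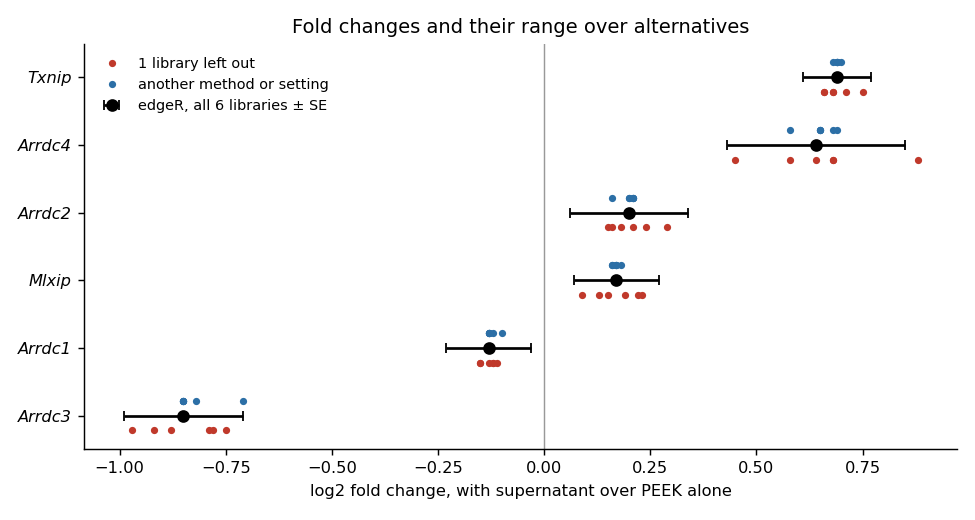
Log2 fold change (with supernatant over PEEK alone) of the 6 members with enough counts, with black points and SE bars from edgeR on all 6 libraries, red points for fits that leave out 1 library and blue points for other methods or settings. Every point of a gene lies on the same side of 0, and Arrdc4 has the widest span, 0.45 to 0.88.

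The genes whose profile over the 6 libraries was most like that of Txnip were found by the root mean square difference of log2 CPM, each gene centred on its own mean, among 13007 named genes. They were Snx18, an endosomal sorting nexin (0.046), Runx1, a transcription factor (0.066), Fjx1, a secreted four-jointed homologue (0.081), and Rcor2, a corepressor (0.097). Arrdc4 was at 0.219 and in place 242 of this order, and Arrdc3 at 0.784 was in place 12049. Most like Arrdc3 were Snap91, a clathrin assembly protein (0.088), Steap3, an endosomal iron reductase (0.10), Ogn, the matrix proteoglycan osteoglycin (0.110), and Rab3il1, an exchange factor for Rab GTPases (0.113). Among the other alpha-arrestins Arrdc1 was closest to Arrdc3, at 0.395, but only in place 1923 of the order around Arrdc3. This distance includes the difference between the groups, which was known when Txnip and Arrdc3 were picked. The order therefore only describes these profiles, and shared regulation was not tested.

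The surroundings of the family were followed in 10 lists of 108 genes, of which 92 were tested. These lists were chosen with earlier results of these data known, so the counts below are no independent test of them. None of the 92 was called by edgeR (adjusted p under 0.05), 15 (16.3%) had an unadjusted p under 0.05, where 8.95% of all tested genes had, and DESeq2 called 2 of the 96 it adjusted, Foxo1 and Pfkfb3, where it called 1.42% of genes overall. In 14 genes the groups did not overlap, or 15.2% of the 92, and the same share, 15.2%, was found over all tested genes. The values below are CPM, mean ± SD over 3 libraries per group.

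**Figure D5:**
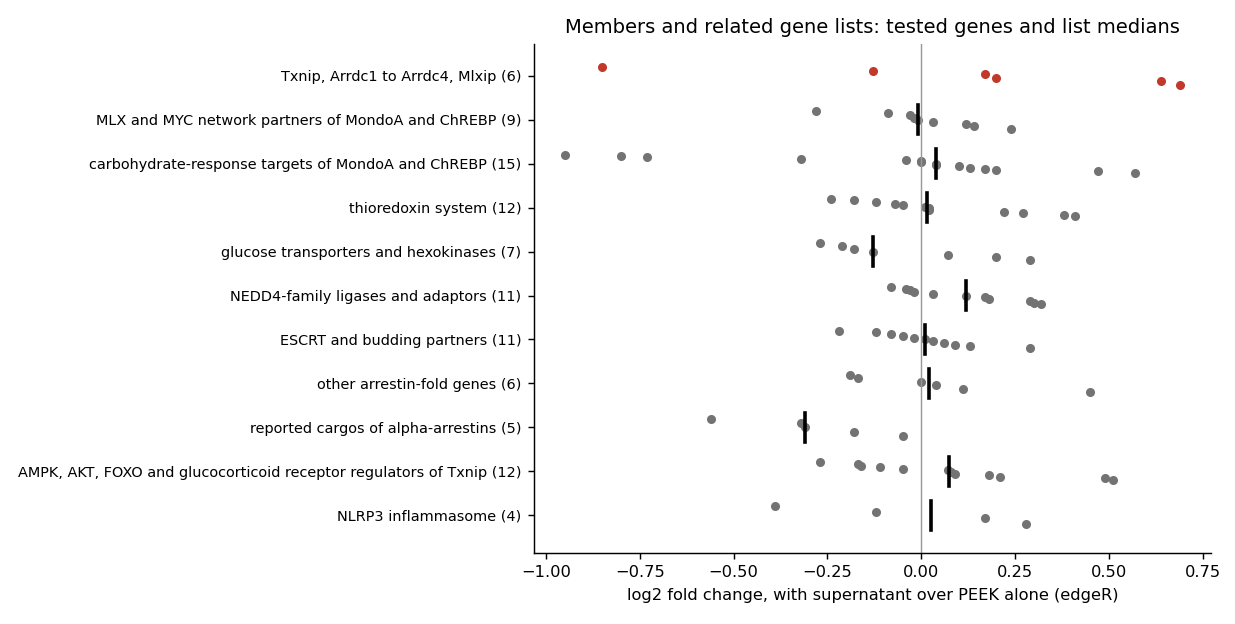
Log2 fold change (with supernatant over PEEK alone, edgeR) of each tested gene in the family (red) and in 10 related lists (grey), with list medians as black bars and the number of tested genes in brackets. The list medians run from −0.31 to 0.12. Single genes of the lists span −0.95 to 0.57, and single genes of the family span −0.85 to 0.69.

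The partners of MondoA and ChREBP were the first list (9 of 9 tested, median log2 fold change −0.01, 4 above 0). Mlx, with which both factors pair, was at 49.7 ± 3.37 CPM with supernatant and 53 ± 4.3 CPM on PEEK alone. Myc, whose partner MAX belongs to the same network, was at 260 ± 6.19 CPM with supernatant and 220 ± 4.29 CPM on PEEK alone, with all 3 libraries higher (log2 fold change 0.24, edgeR adjusted p = 0.37). Mxd1, a repressor that competes with MYC, had −0.28 (adjusted p = 0.709).

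Carbohydrate-response targets other than the alpha-arrestins showed no common direction (15 of 20 tested, median 0.04, 9 above 0). Pklr and G6pc were not analysed here, and genes such as Fgf21 and Pnpla3 had too few counts. The lipid synthesis genes Fasn and Acly, highest in level per length, were at 950 ± 80 and 431 ± 53.5 CPM with supernatant and 829 ± 31.6 and 402 ± 13.2 CPM on PEEK alone. Pfkfb3, which makes an activator of glycolysis, was at 83.4 ± 14.6 CPM with supernatant and 146 ± 38.1 CPM on PEEK alone (log2 fold change −0.80, SE 0.20, edgeR adjusted p = 0.301), with all libraries with supernatant lower. Elovl6, a fatty acid elongase, had −0.32 (adjusted p = 0.366).

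The thioredoxin system, on which TXNIP acts, showed no common direction either (12 of 12 tested, median 0.01, 7 above 0). Txn1, thioredoxin itself, was at 145 ± 28.3 CPM with supernatant and 158 ± 13.5 CPM on PEEK alone. Its reductase Txnrd1 was at 471 ± 101 CPM with supernatant and 362 ± 34 CPM on PEEK alone (log2 fold change 0.38, edgeR adjusted p = 0.531), with overlapping groups. It was 1 of the 2 list genes, of 92 tested, called without replicate 1 with supernatant, the other being the ligase Smurf1. That fit called 199 of all 18819 genes it tested. The peroxidases Prdx2 and Prdx4 had 0.02 and −0.18 (adjusted p = 0.967 and 0.539).

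Glucose transporters, which TXNIP removes from the cell surface, and hexokinases, which phosphorylate glucose inside the cell, had 7 of 13 genes tested (median −0.13, 3 above 0). Hk3 was not analysed here. Slc2a1, the basal glucose transporter GLUT1, was at 55.3 ± 5.34 CPM with supernatant and 66.9 ± 2.97 CPM on PEEK alone (log2 fold change −0.27, edgeR adjusted p = 0.446), and all 3 libraries with supernatant were lower. Hk1 was also lower in all 3, at 159 ± 9.88 CPM with supernatant and 180 ± 6.9 CPM on PEEK alone (−0.18, adjusted p = 0.539). Hk2, the inducible hexokinase, had 0.29 (adjusted p = 0.488).

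Among the NEDD4-family ligases and adaptors that alpha-arrestins recruit, 11 of 11 genes were tested (median 0.12, 7 above 0), and no gene had groups that did not overlap. Nedd4 was at 1999 ± 38.5 CPM with supernatant and 2029 ± 48.6 CPM on PEEK alone. Smurf2 had 0.03, and Smurf1, at 121 ± 18.2 CPM with supernatant and 98.6 ± 1.44 CPM on PEEK alone, had 0.29 (edgeR adjusted p = 0.499). Nedd4l had 0.32 (adjusted p = 0.671). The ESCRT and budding partners of ARRDC1 had a median of 0.01 (11 of 11 tested, 6 above 0). Of these, Chmp4b and Hgs had 0.01 and 0.06, Vps37b 0.29 and Vps28 −0.22 (adjusted p = 0.434 and 0.508 for the last pair).

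Other genes of the arrestin fold had a median of 0.02 (6 of 8 tested, 3 above 0), with Arrdc5 not analysed here. The retromer subunit genes Vps26a and Vps26b had −0.17 and 0.04, and Vps26c, which belongs to the related retriever complex, had −0.19, each with overlapping groups. Of the 5 reported cargos of alpha-arrestins, all 5 had a log2 fold change under 0 (median −0.31), and in all of them the groups overlapped. Among all tested genes 48.3% had a log2 fold change above 0. The cargo lowest in level held only 13 to 31 counts per library (log2 fold change −0.56, SE 0.46). The iron transporter gene Slc11a2 was at 102 ± 2.89 CPM with supernatant and 127 ± 29.3 CPM on PEEK alone (edgeR adjusted p = 0.595). Insr, the insulin receptor gene, had −0.05.

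The kinases and transcription factors that act on TXNIP or its gene came next (12 of 12 tested, median 0.07, 7 above 0). Foxo1, a forkhead factor, was at 42.7 ± 2.16 CPM with supernatant and 30.4 ± 4.25 CPM on PEEK alone, with all 3 libraries higher (log2 fold change 0.49, SE 0.11, edgeR adjusted p = 0.273). Prkag1, a subunit of the energy-sensing kinase AMPK, was at 40.3 ± 1.46 CPM with supernatant and 48.7 ± 0.347 CPM on PEEK alone, with all 3 libraries lower (−0.27, adjusted p = 0.351). Akt1 had 0.18 and Prkab1 0.09. In the NLRP3 inflammasome list, whose sensor TXNIP can bind, 4 of 7 genes were tested (median 0.02, 2 above 0). Nek7 and Il18 had −0.12 and −0.39 (adjusted p = 0.749 and 0.653), Nlrp3 and Il1b had too few counts to be tested, and Gsdmd was not analysed here.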

How the data were processed

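The deposited table gave raw counts and FPKM per gene and library, per the file headers. The submitters' processing notes name cutadapt 1.9 and HISAT2 2.2.1; no source states the build, the annotation, the counting tool or how it handled strand, molecular identifiers and multiply matching reads. RNA was poly(A)-selected and second strands carried dUTP, per the labels' protocols. Groups follow the treatment label and replicate numbers the library names. No 2 libraries were copies of each other by their counts.

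edgeR 4.0.16 in R 4.3.3 was run on the counts of all genes (TMM, filterByExpr with minimum count 10 and total 15, group as the only term, adjusted p under 0.05); the SE is the log2 fold change over the square root of F. Alternatives were DESeq2 1.42.0, its size factors, no filter, limma 3.58.1 on log2(FPKM + 1) or log2(FPKM + 0.1) with 1 FPKM in 3 libraries, a replicate block, each library left out, and adjusted p under 0.01. The edgeR test was also run on simulated counts, in which no library stood apart as replicate 1 does here. No result above rests on that run.

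Members, gene lists and markers were chosen with earlier results of these data known. From each list the text names genes past the threshold, the 2 of highest mean FPKM and the 2 of smallest p; for Txnip and Arrdc3 it names the 4 most similar genes, leaving out gene models, pseudogenes and ribosomal protein genes. Of the genes so chosen, 1 is not reported here. Further genes named from the marker lists were chosen after their values were seen. RefSeq promoters (GRCm38.p6) matched all 7 members by symbol.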

Additional observations from a re-analysis of the deposited data

How the results depend on the processing

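All 72 recomputed log2 fold changes of the 6 tested members (12 alternatives each) kept their direction and moved by less than 1 SD between replicates. The number of called genes depended on the method: 3 with edgeR, 294 with DESeq2 (168 higher and 126 lower with supernatant), and 0 without the low-count filter (1903 at an unadjusted p under 0.05), 0 with the replicate block (1330) and 0 at an adjusted p under 0.01. Leaving out 1 library gave 0 to 199 genes. The 199, among 18819 tested genes, came without replicate 1 with supernatant, where Txnip was the 1 member called. Genes of the related lists went from 0 to 2 called with DESeq2 (of 96 it adjusted) and from 0 to 2 over the libraries left out (of 92 tested). Same-numbered libraries deviated from their group means with correlations of −0.03, −0.01 and 0.02, and 0 of 6 libraries correlated best with its own number. With 3 libraries per group this cannot show whether they were paired, and the labels state no pairing. With the replicate block 0 members and 0 list genes were called. The cause of these differences was not tested. The 6 tested members held 596 to 10346 counts per library and Mlxipl at most 4; the effect of depth was not tested.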
